A study of Rattus norvegicus with 32 samples.

Results

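Expression of 10 genes of phagocytes and of cells that make extracellular matrix, Gpnmb, Capg, Postn, Anxa1, Vim, Col1a1, Col1a2, Col3a1, Dcn and Lum, was followed in RNA sequencing of the nucleus accumbens shell of rats, a part of the ventral striatum. They are 10 of 34322 gene symbols in the count table, matched by symbol, and all 10 passed the filter on low counts that kept 17059 genes. The genes were chosen because Gpnmb exceeded 20 CPM (a gene's count per 1000000 counts of its library) in 4 of the 32 libraries, and with earlier results of these data known. The level of Gpnmb and the list of companions are thus a description and support nothing by themselves.

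All rats were labelled wild type and went through fear conditioning in which shocks came with a cue. In the neutral-cue groups the cue was neutral, and in the anxiety-cue groups it was a lemon odor that was later present in tests of anxiety. Cannabidiol (CBD, a compound of the cannabis plant) or vehicle was given before those tests, and tissue was taken after a last shock. There were 8 libraries in each of 4 groups, each named by its drug and its cue, such as the vehicle neutral-cue group. The sample labels call the tissue brain, and the series' design names the shell. They give no strain, sex, age, dose or batch, and do not tell whether the libraries are from different rats, so p-values measure only the spread between these libraries, which may be technical. Libraries are numbered within a group in order of deposition, and the number pairs nothing.

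Gpnmb encodes a transmembrane glycoprotein that rises in macrophages and microglia with loaded lysosomes, and Capg encodes a protein that caps actin filaments and is abundant in macrophages. Anxa1 encodes annexin A1, a phospholipid-binding protein that limits inflammation, and Vim encodes vimentin, an intermediate filament of mesenchymal cells, endothelium and reactive astrocytes. Fibroblasts make the fibrillar collagens: Col1a1 and Col1a2 encode the chains of type I collagen and Col3a1 that of type III. Postn encodes periostin, a matricellular protein of remodelling tissue. Dcn and Lum encode decorin and lumican, small proteoglycans that bind collagen fibrils. In brain such fibroblasts lie in the meninges and around vessels, and hardly at all among neurons.

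The libraries held 11651537 to 24002424 counts. Markers of tissue other than the accumbens shell differed between libraries of 1 group. Plin1, the protein that coats the fat droplet of fat cells, was above 5 CPM in 10 libraries: 5 of the vehicle neutral-cue group, 0 of the CBD neutral-cue group, 3 of the vehicle anxiety-cue group and 2 of the CBD anxiety-cue group. Alb, which encodes the liver's albumin, was above 20 CPM in 0, 4, 2 and 4 libraries of those groups in that order. Slc17a6, a glutamate transporter of septal and other subcortical neurons, reached 20 CPM in 3, 0, 1 and 2. Drd1, the dopamine receptor of striatal medium spiny neurons, was found in every library at 57.3 to 460 CPM.

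Gpnmb stood at 21.3 CPM in vehicle neutral-cue library 1, 28.6 in library 2 and 26 in library 3 of the same group, and at 33.2 CPM in CBD anxiety-cue library 2. The next library, vehicle neutral-cue library 8, had 8.88 CPM, and the other 28 libraries ran from 4.26 to 8.88 CPM with a median of 6.46. Between the 28 and the 4 lay a gap of 1.28 on the log2 scale. All 4 libraries above the gap were among the 10 with Plin1 above 5 CPM, 0 were among those high in Alb and 1 was among those high in Slc17a6. These 4 libraries are called the Gpnmb-high libraries below. They were singled out by a measured level and are not a group of the study, so their values are given 1 by 1 and are not averaged or tested against the rest.

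By group, Gpnmb had a lowest, median and highest level of 6.11, 8.82 and 28.6 CPM in the vehicle neutral-cue group and 4.71, 6.61 and 8.4 CPM in the CBD neutral-cue group. The same 3 values were 4.26, 5.9 and 8.44 CPM in the vehicle anxiety-cue group, and 5.17, 6.32 and 33.2 CPM in the CBD anxiety-cue group. In order of the medians the groups ran from vehicle neutral over CBD neutral and CBD anxiety to vehicle anxiety. All 4 ranges overlapped, so no neighbours in that order were separate. In the 100 bases before its start, the Gpnmb promoter holds 2 of the motifs searched, shown in capitals: TGAGTCA, a match to the AP-1 letters TGANTCA, 87 bases before the start, and TCACATGA, the M-box letters read by the MITF family of factors that control lysosome and pigment genes, 23 bases before it.

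Gpnmb, GRCr8 chr4:79341028-79341127, + strand: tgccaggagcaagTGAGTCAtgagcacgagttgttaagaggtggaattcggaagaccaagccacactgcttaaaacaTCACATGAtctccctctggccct

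The sequence is RefSeq's, 5′ to 3′. Of the 10 genes, 6 had a promoter in that table (Gpnmb, Postn, Anxa1, Vim, Col1a2 and Lum). Searched on both strands of the 250 bases before the start, the M-box letters occurred in 1 of these 6 and in 0.977% of 33469 rat promoters, and TGANTCA in 1 of 6 and 6.34%. Neither motif overlaps another of those searched. Mitf, Tfeb and Tfe3 of that family were looked up after their values were seen. Mitf was at 10.6 to 16.6 CPM in the 4 Gpnmb-high libraries, within the 8.71 to 17.1 CPM of the other 28. Tfeb was at 15.8 to 25.4 CPM against 10.5 to 25.0, and Tfe3 at 23.7 to 31.3 CPM against 22.7 to 30.0. Tfeb and Tfe3 were each above the 28 in 1 of the 4 libraries. A match is a description of letters and not a measured site.

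Capg followed the same 4 libraries. It had 16.6 CPM in vehicle neutral-cue library 1, 21.4 in library 2, 17 in library 3 and 19.3 CPM in CBD anxiety-cue library 2. The other 28 libraries ran from 1.11 to 8.17 CPM (median 2.77), so no library overlapped the 4. Its group medians were 5.7 CPM in the vehicle neutral-cue group, 2.62 in the CBD neutral-cue group, 2.51 in the vehicle anxiety-cue group and 3.01 in the CBD anxiety-cue group.

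**Figure D1:**
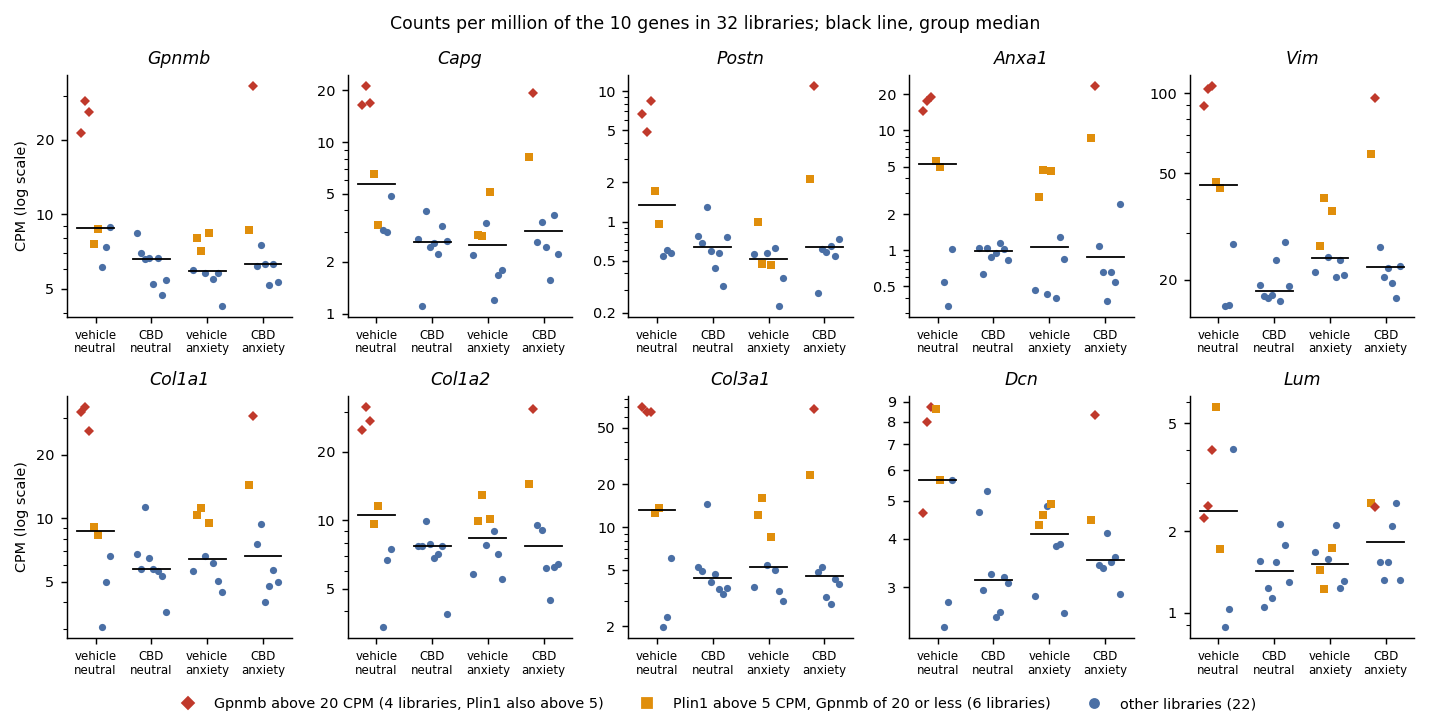
Level in CPM (log axis) of each of the 10 genes in the 32 libraries, 1 point a library, by group, with a black line at the group median. Red diamonds are the 4 libraries with Gpnmb above 20 CPM, 3 of the vehicle neutral-cue group and 1 of the CBD anxiety-cue group; they are the top 4 points for every gene except Dcn and Lum, and orange squares (the 6 other libraries with Plin1 above 5 CPM) lie above every point of the 22 others in blue for Anxa1 and overlap the blue points for the other genes.

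Postn was scarce. It had 6.68, 4.83 and 8.45 CPM in vehicle neutral-cue libraries 1, 2 and 3 and 11.1 CPM in CBD anxiety-cue library 2, which are 140 counts or fewer in the first 3 and 203 in the last. In the 28 others it ran from 0.225 to 2.12 CPM, with a median of 0.587 CPM. A count of 4 was the lowest, so the order among low libraries is not resolved at this depth. Anxa1 had 14.5, 17.6 and 19.0 CPM in those 3 vehicle libraries and 23.7 CPM in the CBD library, against 0.343 to 8.61 CPM elsewhere (median 0.988 CPM). For both genes the 4 Gpnmb-high libraries were the 4 highest of the 32. Their promoters are shown because both genes rank with Gpnmb and both hold a TATA box, TATAAA in capitals, near the start:

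Postn, GRCr8 chr2:140678001-140678060, + strand: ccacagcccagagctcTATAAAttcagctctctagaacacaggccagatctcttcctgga
Anxa1, GRCr8 chr1:227303733-227303792, - strand: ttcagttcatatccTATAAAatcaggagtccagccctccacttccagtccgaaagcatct

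TATAAA lies 44 bases before the start of Postn and 46 before that of Anxa1. On either strand it occurred in 4 of the 6 promoters, the other 2 being Col1a2 (170 bases before the start) and Vim (82), and in 12.9% of all promoters. CCAAT, the letters of the CCAAT box, occurred in 3 of 6 (Col1a2, Lum and Vim) and in 34.0% of all. The E-box letters CACGTG occurred in 0 of 6 and in 5.59% of all.

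Vim had 89.7, 104.2 and 106.9 CPM in vehicle neutral-cue libraries 1, 2 and 3 and 96.0 CPM in CBD anxiety-cue library 2. In the other 28 it ran from 15.9 to 59.1 CPM, with a median of 21.7 CPM. The group medians were 45.2 CPM in the vehicle neutral-cue group, 18.2 in the CBD neutral-cue group, 24 in the vehicle anxiety-cue group and 22.3 in the CBD anxiety-cue group.

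Among the collagens, Col3a1 had the widest separation. It had 70.5, 64.7 and 65.1 CPM in vehicle neutral-cue libraries 1, 2 and 3 and 68.1 CPM in CBD anxiety-cue library 2. In the 28 others it ran from 1.97 to 23.3 CPM with a median of 4.72 CPM. The lowest of the 4 thus lay 2.78 times above the highest of the 28. For Gpnmb itself that ratio was 2.4, for Postn 2.28, for Capg 2.03, for Col1a1 1.81, for Col1a2 1.74, for Anxa1 1.68 and for Vim 1.52. Col1a1 had 32.0, 33.9 and 26 CPM in the 3 vehicle libraries and 30.6 CPM in the CBD library, against 3.05 to 14.4 CPM elsewhere. Col1a2 had 25.1, 31.6, 27.3 and 30.9 CPM in the same order, against 3.4 to 14.4 CPM. Both type I chains and the type III chain therefore ranked the same 4 libraries first.

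The proteoglycans did not share this order. Dcn had 4.65, 7.98 and 8.75 CPM in vehicle neutral-cue libraries 1, 2 and 3 and 8.34 CPM in CBD anxiety-cue library 2, but vehicle neutral-cue library 4, not Gpnmb-high, had 8.63 CPM. Lum had 2.24, 2.49, 3.98 and 2.45 CPM in the 4 Gpnmb-high libraries, while vehicle neutral-cue library 4 had 5.76 and library 8 had 4.01 CPM. Of the 4 highest libraries, 3 were Gpnmb-high for Dcn and 1 for Lum.

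The share of genes with this order is the base against which the 10 can be read. The 4 Gpnmb-high libraries were the 4 highest of 32 for 7 of the 9 companions of Gpnmb and for 50 of all 17058 other genes tested (0.293%), and they were the 4 lowest for 0 genes. The 9 were proposed with results of these data known, so the 7 are a description. Among the genes fixed in lists, Col6a3 (a type VI collagen chain, 8.28 to 11.3 CPM against at most 6.76), Mmp2 (a matrix metalloproteinase, 6.46 to 11.2 against at most 5.78), Fbn1 (fibrillin, 11.5 to 16.9 against at most 10.8) and Pcolce (an enhancer of procollagen processing, 3.79 to 5.43 against at most 3.01) had the same order. So did Itgax, an integrin of phagocytes (1.2 to 1.98 CPM against at most 0.974), Anxa2 (21 to 32.1 against at most 19.1), the lysosomal protease Ctsl (84.5 to 89.7 against at most 77.2), Folr2, a folate receptor of tissue macrophages (1.82 to 2.89 against at most 1.46), S100a6 (3.95 to 6.29 against at most 3.37) and Tgfb1 (7.12 to 8.49 against at most 6.1). These genes were picked from the lists for their order, after their values were seen.

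Some genes with the same order were too low in most libraries to be tested. Of 11861 such genes with any count, 5 had at least 1 CPM in the 4 Gpnmb-high libraries and less in all others: Mmp12, Atp6v0d2, Mamdc2, Hk3 and Akr1b8. They too were chosen after their values were seen. Mmp12, the elastase of macrophages, had 8.44, 11.5 and 12.4 CPM in vehicle neutral-cue libraries 1, 2 and 3 and 14.5 CPM in CBD anxiety-cue library 2. In the other 28 libraries Mmp12 was at most 0.625 CPM, and 12 of them had 0 counts. Atp6v0d2, a subunit of the vacuolar proton pump found in macrophages and osteoclasts, had 5.66 to 8.06 CPM in the 4 and at most 1.97 CPM in the 28. Among tested genes outside the 10, Vsig8 (3.44 to 6.05 CPM against at most 0.962) and S100a4, a calcium-binding protein of fibroblasts and macrophages (2.94 to 6.37 against at most 1.39), stood farthest apart.

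**Figure D2:**
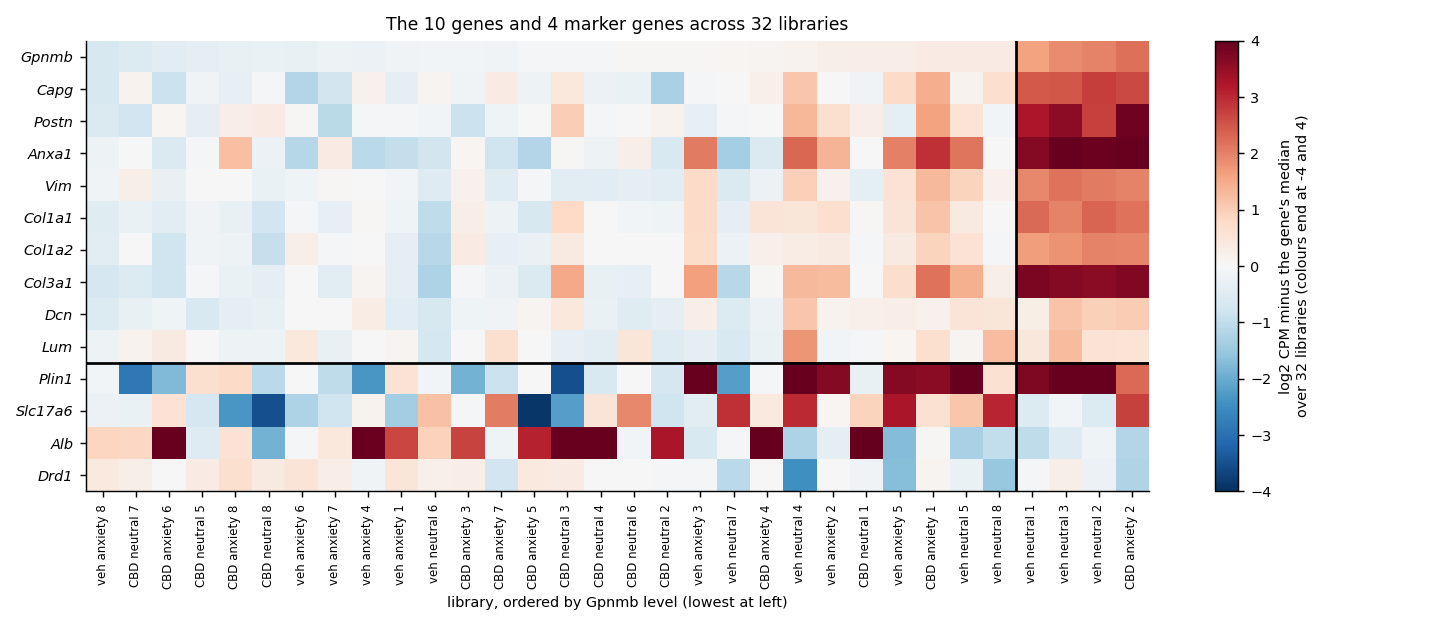
Level of the 10 genes and of 4 markers (Plin1 of fat cells, Slc17a6 of subcortical glutamate neurons, Alb of liver, Drd1 of medium spiny neurons) in the 32 libraries ordered by Gpnmb, as log2 CPM minus the gene's median over the libraries, with colours ending at -4 and 4. Right of the vertical line are the 4 libraries with Gpnmb above 20 CPM; Plin1 is also high in 6 libraries left of it, and Slc17a6 in 1 of the 4.

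Defining markers of other cell types were not all raised in the Gpnmb-high libraries. Slc6a13, a transporter of meningeal fibroblasts, had 4.43 to 10.5 CPM there and 2.47 to 18.1 CPM in the 28. Cd68, a lysosomal protein of phagocytes, had 0.545 to 1.39 against 0.458 to 1.6 CPM, and Cx3cr1, the fractalkine receptor of microglia, 21.4 to 36.5 against 20.7 to 38.0 CPM. Mrc1, the mannose receptor of border macrophages, had 4.01 to 5.61 against 0.364 to 5.11 CPM, above the 28 in 2 of the 4 libraries. Pecam1 of endothelium, Acta2 of smooth muscle, Gfap of astrocytes, Foxj1 of ependyma, Kl of choroid plexus and the melanosome gene Pmel lay within the range of the 28 in each of the 4 libraries. Alb was at 2.29 to 4.68 CPM in the 4, and Acta1 of skeletal muscle was at 10.9 to 16.1 CPM against 6.07 to 13.3.

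Over whole lists, the summed level of 26 meningeal fibroblast genes was 210 to 333 CPM in the 4 Gpnmb-high libraries, within the 205 to 397 CPM of the 28, and 0 of its 23 tested genes had the 4 libraries highest. The sum of 16 microglial genes was 350 to 464 CPM against 279 to 478 (0 of 15), that of 12 endothelial genes 241 to 357 against 217 to 395 (0 of 12), and that of 12 mural genes 115 to 168 against 87.9 to 175 (0 of 11). The collagen list was at 576, 825 and 705 CPM in vehicle neutral-cue libraries 1, 2 and 3 and at 656 CPM in CBD anxiety-cue library 2, against 216 to 596 CPM, with 4 of 19 tested genes in this order. Phagocyte and lysosome genes summed to 1350 to 1600 CPM against 955 to 1540, with 4 of 19. Matrix proteins and enzymes had 4 of 37, border macrophage genes 1 of 10, reactive astrocyte genes 2 of 12, genes of transforming growth factor signalling 1 of 16, and the remaining lists 0. These counts include genes of the 10: Col1a1, Col1a2 and Col3a1 among the collagens, Capg among phagocyte genes, Postn among matrix genes and Vim among astrocyte genes. The only other collagen in this order was Col6a3. The sums hold genes of the 10 as well, so sums and counts of these lists are a description. The 10 genes summed to 283 to 324 CPM in the 4 libraries and to 37.8 to 146 CPM in the 28. No list had a gene at 0 in all libraries. More or fewer cells of a type and more or less RNA per cell cannot be told apart in this tissue.

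**Figure D3:**
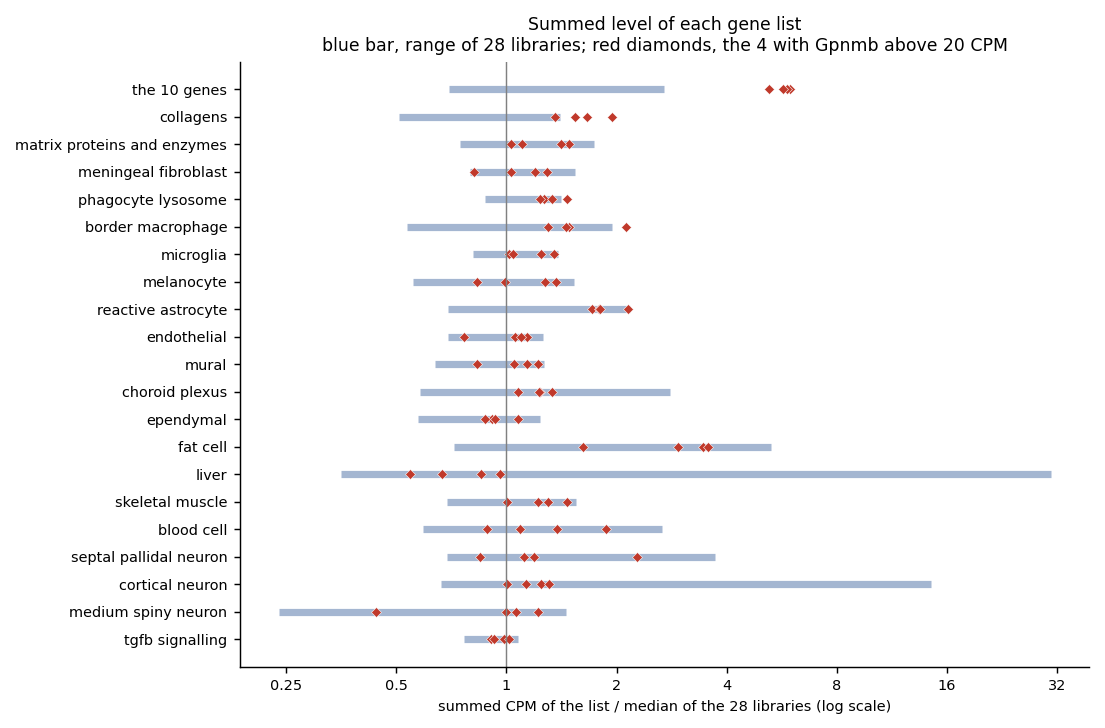
Summed CPM of each gene list divided by its median over the 28 libraries with Gpnmb of 20 CPM or less (log axis), with a blue bar for the range of the 28 and red diamonds for the 4 other libraries. The sum of the 10 genes lies outside the blue bar in all 4; sums of microglial, meningeal fibroblast, endothelial and mural genes lie inside it.

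Beyond the 4 Gpnmb-high libraries, the split by Plin1 separated Anxa1 and, with overlap, most of Vim, but not Gpnmb. Anxa1 was at least 2.78 CPM in each of the 10 libraries with Plin1 above 5 CPM and at most 2.43 CPM in each of the 22 others. Of the 17058 genes other than Plin1, 21 (0.123%) were highest in these same 10 libraries. Of the 10 highest libraries, 9 were Plin1-high for Vim, Col1a2 and Col3a1, 8 for Gpnmb, Postn and Col1a1, 7 for Capg, and 6 for Dcn and Lum. In all, 4 of the 10 genes reached 9 or more, against 55 of those 17058 genes (0.322%).
In the 6 libraries with Plin1 above 5 CPM that were not Gpnmb-high, Anxa1 ran from 2.78 to 8.61 CPM, against 0.343 to 2.43 CPM in the 22. Vim ran from 26.7 to 59.1 against 15.9 to 27.7 CPM, Col3a1 from 8.44 to 23.3 against 1.97 to 14.4 CPM, and Gpnmb from 7.14 to 8.76 against 4.26 to 8.88 CPM. The range of Gpnmb itself therefore overlapped fully, while that of Anxa1 did not overlap. The median of Gpnmb was still higher in the 6 libraries, at 8.22 CPM, than in the 22, at 6.16 CPM. Fat cell genes as a list summed to 45.9 to 101 CPM in the 4 Gpnmb-high libraries, against 20.4 to 150 CPM in the 28.

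Whether the amount of Plin1 goes with the 10 genes was tested within the 22 libraries with Plin1 of 5 CPM or less, since the other 10 fall into 2 sets by Gpnmb. Pearson's r of log2 CPM ran from -0.28 for Dcn to 0.22 for Lum and Spearman's rho from -0.28 to 0.30, and 0 of 10 genes passed (permutation test, adjusted p 0.999 for each). Without the 2 libraries farthest from the median of Plin1, r ran from -0.13 to 0.34. With Plin1 of 5 CPM or less throughout, these 22 libraries cannot show how the genes vary at higher amounts of Plin1. Vehicle neutral-cue library 4 had the highest Plin1 of all, 42.6 CPM, and a Gpnmb level of 7.56 CPM. The part of fat tissue in the levels of the 10 genes was not tested beyond these values.

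Whether the companions vary with Gpnmb was tested within the 28 libraries below the gap only, because a correlation over 2 separated sets would describe the gap. On log2 CPM the Pearson r with Gpnmb was 0.59 for Col1a1 (Spearman's rho 0.63), 0.59 for Col3a1 (0.63), 0.55 for Col1a2 (0.57), 0.54 for Dcn (0.56), 0.52 for Capg (0.57), 0.49 for Postn (0.37), 0.48 for Anxa1 (0.44), 0.38 for Vim (0.24) and 0.23 for Lum (0.09). The unadjusted p of Pearson's r, from a 2-sided permutation test with 100000 resamples, ran from 0.00094 for Col1a1 to 0.25 for Lum. For Vim it was 0.0443, with an adjusted p of 0.179. The share of all genes under an unadjusted p of 0.05 was not counted, so a count of companions under it has no base here. After adjustment over 17058 genes 0 of 9 passed, and 0.0% of all genes did; the adjusted p was 0.113 for Col1a1, Col1a2, Col3a1, Dcn, Capg and Postn. By Spearman's rho 81 genes (0.475%) passed with a positive sign and 0 of 9 companions, with adjusted p of 0.05, not below the threshold, for Col1a1 and Col3a1.
Without the 2 libraries farthest from the median of Gpnmb, vehicle anxiety-cue library 8 and CBD neutral-cue library 7, r was 0.58 for Col1a1, 0.57 for Capg and 0.47 for Vim. Within the 22 libraries with Plin1 of 5 CPM or less, r was 0.36 for Col1a1, 0.34 for Capg, 0.29 for Col3a1 and 0.38 for Dcn, and it was -0.08 for Anxa1 and -0.30 for Vim. In these 22 libraries 0 of the 9 companions had an unadjusted p under 0.05 by the permutation test, and 7 of 9 had an r above 0. After adjustment 0.0% of all genes passed there with a positive r. When log2 CPM were taken without TMM scaling, 5 of the 9 passed (Capg, Col1a1, Col1a2, Col3a1 and Dcn, adjusted p 0.0474 to 0.0485), beside 4.01% of all genes with a positive r.

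**Figure D4:**
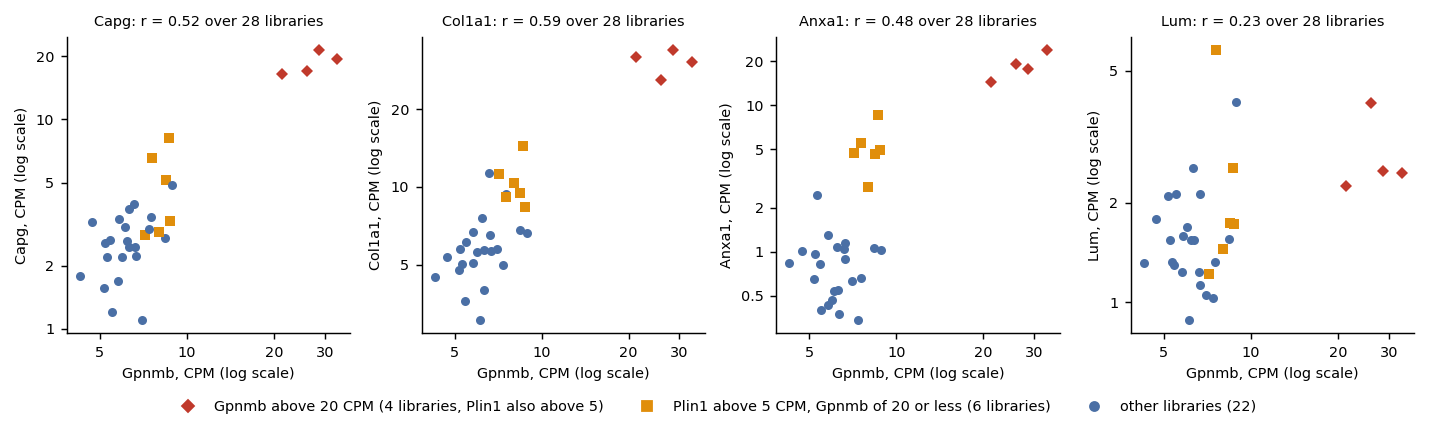
Level of Capg, Col1a1, Anxa1 and Lum against Gpnmb in each library, in CPM on log axes; r is Pearson's, over the 28 libraries with Gpnmb of 20 CPM or less and on TMM-scaled log2 CPM. The 4 red diamonds lie apart at the right of each panel, and for Anxa1 the 6 orange squares lie above every blue point.

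Between the collagens r was higher than with Gpnmb, a difference that was not itself tested. Over the 28 libraries r was 0.91 between Col1a1 and Col1a2 and 0.91 between Col1a1 and Col3a1 (adjusted p 0.01 each, permutation test, from the smallest p of 1e-05 that the resamples can give), and within the 22 libraries it was 0.85 and 0.84. Of the 9 other genes, 3 passed with Col1a1 (Anxa1, Col1a2 and Col3a1), against 0.293% of all genes. This share, like those given for the other reference genes below, counts only genes that passed with a positive r. Col3a1 and Dcn had an r of 0.72 over 28 and 0.66 over 22 libraries. With Col3a1, 5 of 9 passed (Anxa1, Vim, Col1a1, Col1a2 and Dcn), against 0.369% of all genes.
Anxa1 and Vim formed another pair, with r of 0.85 over 28 libraries (permutation test, adjusted p 0.00588) but 0.31 over the 22. With Anxa1 as reference 3 of 9 passed, against 0.258% of all genes, and with Vim 3 of 9, against 0.276%. With Col1a2 2 of 9 passed (Col1a1 and Col3a1), against 0.188%, with Dcn 1 (Col3a1), against 0.299%, and with Lum 1 (Dcn), against 5.79%. With Postn 0 of 9 passed, and 0.0% of all genes did so with a positive r. With Capg 6 of 9 passed, and 5.44% of all genes did so with a positive r. Across the 45 pairs r was above 0 in 45 over the 28 libraries, with a median of 0.54, and in 38 over the 22, with a median of 0.24. The lowest over the 22 was -0.56, between Postn and Vim.

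The genes most like Gpnmb over the 28 libraries were mostly outside the matrix. Tshr, the thyrotropin receptor, had the highest r (0.70), followed by Rasip1, a Ras-interacting protein of endothelium (0.68), Tapbp, the tapasin of antigen presentation (0.68), Znrf4 (0.68), Tspan14 (0.67), the proteoglycan Sdc3 (0.66), Polr3c (0.66), Foxp4 (0.65), Lmna, which encodes lamin A (0.65), and E2f2 (0.65). Each had a permutation test adjusted p of 0.113. None of these 10 had the Gpnmb-high libraries as its 4 highest: Tshr was at 0.708 to 1.39 CPM in them and at up to 1.56 CPM elsewhere. The genes most like Col1a1 were Col1a2, Col3a1, Angptl4, a lipoprotein lipase inhibitor (r 0.81), Agpat2, an enzyme of triglyceride synthesis (0.81), and the matrix proteoglycan Bgn (0.80), each with an adjusted p of 0.01 by permutation test. Of their 10 highest libraries, 9 were Plin1-high for Col1a2, Col3a1, Angptl4 and Agpat2, and 8 for Bgn.

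Markers of neurons differed in the sign of r with Gpnmb over the 28 libraries. All 13 medium spiny neuron genes had an r below 0, with a median of -0.50, and Drd1 had -0.52 (permutation test, unadjusted p 0.00491, adjusted p 0.113). Of 10 genes of septal and pallidal neurons, 9 had an r above 0, with a median of 0.41, and Slc17a6 had 0.47. Neurons were not alone in this: of 10 fat cell genes, 9 had an r above 0, with a median of 0.465. Plin1 had 0.563 (permutation test, unadjusted p 0.00172, adjusted p 0.113). The median over all genes was -0.01. The points share their dissection and library, and 0 genes of any of these lists passed after adjustment.

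The study's comparisons were then read for the 10 genes, with all 32 libraries in 1 edgeR quasi-likelihood fit and adjustment over 17059 genes. For CBD against vehicle under the neutral cue all 10 genes had a log2 fold change below 0, with a median of -1.37, against 0.01 over all genes. The unadjusted p was under 0.05 for 10 of 10, beside 22.6% of all genes (12.0% lower). The lowest adjusted p was 0.0697 and 0 of 10 were called, beside 0.0% of all genes. Vim was at -1.48 ± 0.362 (SE, adjusted p 0.0697), Capg at -1.82 ± 0.467 (adjusted p 0.0721) and Anxa1 at -3.02 ± 0.833 (adjusted p 0.0861). Col3a1 was at -2.39, Postn at -2.11, Gpnmb at -1.14 and Dcn, the smallest, at -0.72.

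DESeq2 called 6 of the 10 in this comparison, Gpnmb, Capg, Postn, Anxa1, Vim and Col3a1, at adjusted p of 0.0114 to 0.0379, beside 2.05% of all genes. The same 6 were called by edgeR without the 6 libraries high in Slc17a6, beside 0.18% of all genes. That setting drops vehicle neutral-cue libraries 4, 7 and 8, none of them Gpnmb-high, and keeps the 3 that are. It thus raises the share of Gpnmb-high libraries in the vehicle neutral-cue group. Without vehicle anxiety-cue library 5, which enters through the shared spread, edgeR called Capg (adjusted p 0.0499) and Vim (adjusted p 0.0479), beside 0.963% of all genes. Of the 8 vehicle libraries, 3 were Gpnmb-high and 5 Plin1-high, against 0 and 0 of the 8 CBD libraries. Without the 4 Gpnmb-high libraries Gpnmb was at -0.26, Capg at -0.64, Vim at -0.58, Col3a1 at -0.39 and Col1a1 at 0.01, and 1 of 10 genes was called, Lum at -0.84 (edgeR, adjusted p 0.0496), beside 22.5% of all genes. That omission removes libraries by the level of Gpnmb itself. Without the 10 Plin1-high libraries, which leaves 3 vehicle libraries, Postn was at 0.27, Anxa1 at 0.55, Col1a1 at 0.40 and Col3a1 at 0.69, 0 of 10 were called and 15.7% of all genes were. The direction of 6 of the 10 genes turned there: Postn, Anxa1, Vim, Col1a1, Col1a2 and Col3a1.

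For the anxiety cue against the neutral cue in vehicle rats the reference was the same 8 vehicle neutral-cue libraries, which both comparisons share. All 10 genes had a log2 fold change below 0, with a median of -1.1 and an unadjusted p under 0.05 for 10 of 10, beside 12.7% of all genes (6.34% lower). By edgeR 0 of 10 were called, beside 0.0% of all genes, with adjusted p of 0.353 to 0.378. DESeq2 also called 0. Postn was at -2.46 ± 0.667 (SE), Col3a1 at -2.02 ± 0.687, Anxa1 at -2.01 ± 0.774, Capg at -1.82 ± 0.464 and Gpnmb at -1.14 ± 0.34. Without the libraries high in Slc17a6, Gpnmb, Capg, Postn and Vim were called (edgeR, adjusted p 0.00832 to 0.0498), beside 0.11% of all genes. Here too vehicle neutral-cue libraries 4, 7 and 8 were dropped and the 3 Gpnmb-high ones of that group were kept. Without the 4 Gpnmb-high libraries 0 of 10 were called, beside 10.1% of all genes, the median was -0.3, Col1a1 stood at 0.20 and Col1a2 at 0.15, and without the 10 Plin1-high ones 0 of 10 were called, beside 16.9%, the median was 0.05 and 6 of the 10 genes were above 0.

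For the anxiety cue against the neutral cue in CBD rats all 10 genes were above 0, with a median log2 fold change of 0.74. Here 4 of 10 had an unadjusted p under 0.05, beside 3.94% of all genes (1.65% higher). They were Capg at 1.03, Postn at 1.56, Anxa1 at 2.28 and Vim at 0.82. By edgeR 0 were called, with adjusted p of 0.995 for each, beside 0.0% of all genes. Without CBD anxiety-cue library 2 the median was 0.26, Capg was at 0.40, Postn at 0.21 and Anxa1 at 1.11. Without all 4 Gpnmb-high libraries the median was 0.25 and 0 of 10 had an unadjusted p under 0.05, beside 595 of 17348 genes.

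CBD against vehicle under the anxiety cue put all 10 genes above 0, with a median of 0.53, and 2 of 10 (Capg at 1.03 and Postn at 1.91) under an unadjusted p of 0.05, beside 1.58% of all genes (0.75% higher). By edgeR and by DESeq2 0 were called, with edgeR adjusted p of 1 for each, beside 0.0% of all genes. Without CBD anxiety-cue library 2 alone, the median was 0.02, Col1a1 was at -0.02, Col1a2 at -0.08, Col3a1 at -0.06 and Dcn at -0.14.

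The interaction, which is the effect of the cue in CBD rats minus that in vehicle rats, was above 0 for all 10 genes, with a median of 1.81 on the log2 scale. It was widest for Anxa1 (4.3 ± 1.13, SE) and Postn (4.02 ± 0.936) and narrowest for Dcn (0.80 ± 0.33). The unadjusted p was under 0.05 for 10 of 10, beside 13.8% of all genes (7.02% higher), and by edgeR 0 were called, with adjusted p of 0.321 to 0.334, beside 0.0% of all genes. DESeq2 called Capg (adjusted p 0.044) and Postn (adjusted p 0.0164), beside 0.0645% of all genes. Without the 4 Gpnmb-high libraries the median was 0.48 and 8 of the 10 genes were above 0, with Anxa1 at 1.47, Postn at 0.91 and Col1a1 at -0.02. There 2 of 10 had an unadjusted p under 0.05, beside 4036 of 17348 genes. By edgeR 0 were called, beside 0.0% of all genes. Without the 10 Plin1-high libraries 0 were called, beside 8.4% of all genes, the median was -0.05, and 7 of the 10 genes were below 0.

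**Figure D5:**
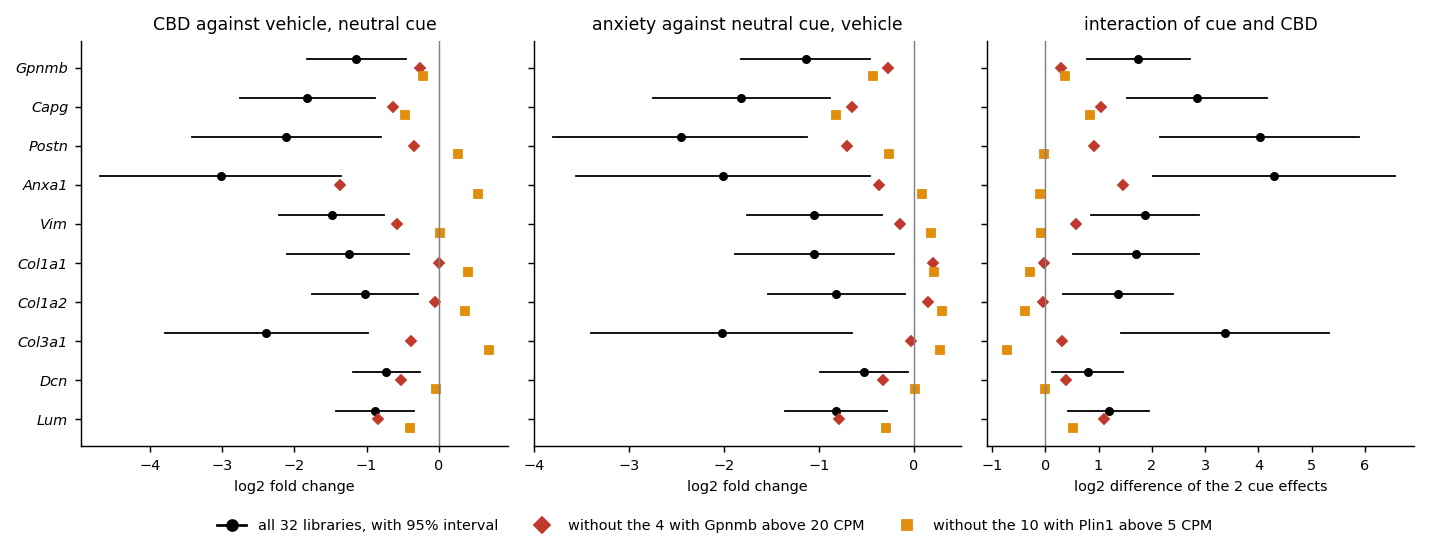
Log2 fold changes of the 10 genes in 3 comparisons from edgeR. Black points and approximate 95% intervals, computed from the SE, are for all 32 libraries. Red diamonds are without the 4 libraries with Gpnmb above 20 CPM and orange squares without the 10 with Plin1 above 5 CPM. Black points lie on 1 side of 0 for all 10 genes in each panel; without the 10 libraries 6 of 10 lie above 0 in the first and second panels.

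Averaged over both drugs, the effect of the cue had a median log2 fold change of -0.21 over the 10 genes, with 1 above and 9 below 0 and 0 of 10 under an unadjusted p of 0.05, beside 3.63% of all genes. Averaged over both cues, the effect of CBD had a median of -0.37, with 10 of 10 below 0. Vim, at -0.55 ± 0.252 (SE), had the only unadjusted p under 0.05 (0.0371, edgeR adjusted p 0.685), beside 7.27% of all genes (4.11% lower). Without CBD anxiety-cue library 2 alone the median for CBD was -0.67 and that for the cue was -0.44. For the cue, 3 of 10 genes were then under an unadjusted p of 0.05, beside 799 of 17128 genes. The median for the cue was -0.14 without CBD neutral-cue library 3 or vehicle neutral-cue library 2. Without the 6 libraries high in Slc17a6 the medians were -0.79 for CBD and -0.70 for the cue. For the cue, 7 of 10 genes were then under an unadjusted p of 0.05, beside 1128 of 17261 genes. Without the 10 Plin1-high libraries the medians were 0.08 for CBD and -0.02 for the cue. The Slc17a6 setting drops CBD anxiety-cue library 2, the only Gpnmb-high library outside the vehicle neutral-cue group, and keeps the 3 in that group. For both averaged effects over all 32 libraries, 0 of 10 were called by edgeR and by DESeq2, beside 0.0% of all genes in edgeR. DESeq2 called 0.0762% of all genes for the averaged effect of CBD and 0.0% for that of the cue.

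Lists of related genes were read in the same way. For CBD under the neutral cue, the 37 tested matrix proteins and enzymes had a median of -0.29, with an unadjusted p under 0.05 for 14 lower and 1 higher gene. Over all genes 12.0% were lower at that p, which is the share to set beside each list's count of lower genes. Lower and higher genes together made up 22.6% of all genes. The 19 collagens had a median of -0.33 with 8 lower and 0 higher, the 20 phagocyte and lysosome genes -0.32 with 14 lower and 0 higher, and the 15 microglial genes -0.20 with 4 lower and 0 higher. Several of the 10 genes are in these lists. The 10 fat cell genes had a median of -2.7 with 7 lower, and the 10 genes of septal and pallidal neurons -0.97 with 7 lower and 1 higher. In the other direction, the 10 liver genes had a median of 4.2 with 8 higher. The 13 medium spiny neuron genes had one of 0.52, with all 13 above 0. Only 2 of these 13 were higher at that p, which is not above the 22.6% of all genes in either direction. The part of any of these in the values of the 10 genes was not tested. The 12 endothelial genes had a median of -0.06 with 0 in either direction. The 16 genes of transforming growth factor signalling, which drives collagen synthesis in fibroblasts, had a median of 0.09 with 4 higher and 3 lower. By edgeR 0 genes of any list were called.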

How the data were processed

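PolyA-selected RNA of the nucleus accumbens shell was sequenced at a company, per the labels. The values are raw counts per gene symbol as the authors deposited them, 34322 symbols in 32 libraries. The submitters' processing notes name STAR, featureCounts and DESeq2, and the builds mRatBN7.2 and Rnor_6.0 without a role. Versions and strand use are not given in the sources used here. Overlapping and antisense genes are therefore uncertain.

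The main test was that of edgeR 4.0.16 under R 4.3.3 (filterByExpr, TMM scaling, quasi-likelihood fit with 1 mean per group, Benjamini-Hochberg adjustment over 17059 genes, threshold 0.05) and DESeq2 1.42.0 as an alternative. CPM used column sums; correlations used TMM-scaled log2 CPM with a prior count of 2 and 100000 permutations, run in Python 3.11.15 with NumPy 2.4.6. Total counts were 11651537 to 24002424, which limits genes of few counts. Groups came from the treatment label. Members, lists and thresholds on Gpnmb, Plin1, Alb and Slc17a6 were chosen with earlier results of these data known. The named genes were the 10, the 10 with the highest r with Gpnmb and 5 with Col1a1 (without locus numbers), the 2 most abundant genes of each list and defining markers; not all are printed. Other settings were size factors, filters, robust estimation, rank correlation, group centring, prior count, and leaving out libraries. The model and the permutation test were tested on simulated data. Promoters are RefSeq's on GRCr8; 6 of 10 genes matched.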

Additional observations from a re-analysis of the deposited data

Results flagged for a closer look

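Within 5 of 40 sets (10 genes in 4 groups of 8 libraries), 1 library stood apart from the other 7 by Dixon's criterion at the 95% level, where chance gives about 2.0. In the CBD anxiety-cue group, library 2 was highest for Gpnmb, at 33.2 CPM with the next library at 8.65 CPM, and for Dcn, at 8.34 CPM with the next at 4.47 CPM. That Gpnmb level is 1 of the 4 above 20 CPM by which the genes were chosen. The count of 5 beside 2.0 is therefore a description and not a test. In the CBD neutral-cue group, library 3 was highest for Col3a1, at 14.4 CPM with the next at 5.23 CPM, library 2 was lowest for Capg, at 1.11 CPM with the next at 2.24 CPM, and library 8 was lowest for Col1a2, at 3.9 CPM with the next at 6.85 CPM. CBD neutral-cue library 3 also had the highest Alb of the 32 libraries, at 226 CPM, the highest Slc6a13, at 18.1 CPM, and the highest Angptl4, at 20.4 CPM; the part of these in its Col3a1 level was not tested.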

How the results depend on the processing

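Of 2401 values of the 10 genes under other settings, 2329 kept direction and side of the threshold and 26 passed the threshold only there. The other 46 changed sign, 31 of these without the 10 Plin1-high libraries. No value passed the threshold in the main setting, so none could lose it, and keeping its side means staying uncalled. Most of the 2401 values came from leaving out 1 library. The number of genes called in CBD against vehicle under the neutral cue was 6 by DESeq2, 6 without the libraries high in Slc17a6, 1 without the Gpnmb-high libraries, and 0 to 2 when 1 library was left out, with 2 only without vehicle anxiety-cue library 5. For the cue in vehicle rats it was 4 without the libraries high in Slc17a6, for the interaction 2 by DESeq2, and for correlation with Gpnmb 5 without TMM scaling. The causes were not tested. Size factors in edgeR, no filter, robust estimation, a minimum of 1 CPM in at least 8 libraries, and leaving out libraries high in Alb left every count of called genes at 0; so did, for the correlation, rank correlation, centring within groups, a prior count of 0.5, no filter, leaving out the 2 farthest libraries, and Slc17a6 as a covariate (chosen after seeing the data).

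Without the 10 Plin1-high libraries these log2 fold changes turned. For the cue in vehicle rats they were 0.08 (Anxa1), 0.177 (Vim), 0.215 (Col1a1), 0.294 (Col1a2), 0.276 (Col3a1) and 0.014 (Dcn). For the cue in CBD rats they were -0.059 (Gpnmb), -0.279 (Postn), -0.022 (Anxa1), -0.074 (Col1a1), -0.086 (Col1a2) and -0.449 (Col3a1). For CBD under the anxiety cue they were -0.057 (Vim), -0.016 (Col1a2), -0.032 (Col3a1) and -0.053 (Dcn), and under the neutral cue 0.272 (Postn), 0.55 (Anxa1), 0.015 (Vim), 0.403 (Col1a1), 0.364 (Col1a2) and 0.692 (Col3a1). For the interaction they were -0.019 (Postn), -0.103 (Anxa1), -0.072 (Vim), -0.288 (Col1a1), -0.38 (Col1a2), -0.725 (Col3a1) and -0.01 (Dcn). The correlation with Gpnmb turned to -0.0803 for Anxa1 and -0.303 for Vim. Without the 4 Gpnmb-high libraries the values that turned were 0.204 (Col1a1) and 0.149 (Col1a2) for the cue in vehicle rats, -0.018 (Col1a1), -0.081 (Col1a2), -0.068 (Col3a1) and -0.134 (Dcn) for CBD under the anxiety cue, 0.005 (Col1a1) for CBD under the neutral cue, and -0.023 (Col1a1) and -0.034 (Col1a2) for the interaction. Without CBD anxiety-cue library 2 alone, CBD under the anxiety cue ran from -0.136 (Dcn) to -0.001 (Vim) for the 5 genes that turned, with -0.019 for Col1a1, -0.081 for Col1a2 and -0.063 for Col3a1; over all single omissions the highest values were 0.495 for Vim, 0.568 for Col1a1, 0.454 for Col1a2, 1.267 for Col3a1 and 0.125 for Dcn. Without the libraries high in Slc17a6, Dcn was at -0.083. The cause was not tested for these.

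Postn and Anxa1 had as few as 4 counts in a library, so their low levels are imprecise. No paired analysis was possible because the labels carry no replicate numbers that the groups share.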

Other observations

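The libraries' titles are plain numbers from 4 to 47, whose meaning the labels do not state. The 4 Gpnmb-high libraries had the titles 6, 9, 11 and 13, and 7 of the 32 libraries had a title from 6 to 13. The 10 libraries with Plin1 above 5 CPM had titles from 4 to 29, a range that held 19 libraries, and the 10 with Alb above 20 CPM had titles from 5 to 30. No test was made of these numbers.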
